A study of Mus musculus with 6 samples.

Results

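The genes described here are 10 structural, RNA-binding and surface markers of neural stem cells: Nes, Vim, Fabp7, Msi1, Msi2, Prom1, Hopx, Hmga2, Ptprz1 and Tnc. They were taken as a list of names, and every E2A peak that the deposited tables annotate to one of them was used, at any distance from the gene. Of 12140 gene IDs named in the 5 peak lists these are 10, and they hold 257 of 91185 peaks and 75 of the 32693 regions left when overlapping peaks of the 5 lists are merged. E2A binding was mapped by ChIP-seq, in which DNA crosslinked to a protein is precipitated with an antibody and sequenced, and stretches with an excess of reads are called as peaks.

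The groups were 1 library from E12KO cells (E12-/-), 1 library from E47KO cells (E47-/-) and 3 libraries from wt cells, called wt replicates 1 to 3. All came from C57BL/6J mice, from neural stem cells of E12.5 embryos kept proliferating in 20 ng/ml FGF-2 and 20 ng/ml EGF, and all were fixed with EGS (a long-armed crosslinker) at 1.5 mM and then with 1% formaldehyde. A sixth sample, input DNA, has no peak list and was not analysed here. The labels do not say how the alleles were made, whether the wt libraries came from separate embryos or cultures, or whether the antibody tells the E2A forms apart. Since each knockout has a single library, genotypes were compared without a test. The genotype and the cell type could not be checked, because peak lists hold no expression values. Read totals are not in the lists, so depth is unknown.

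E2A is the product of the Tcf3 gene, whose alternative splicing gives the basic helix-loop-helix proteins E12 and E47. These proteins bind DNA as dimers, with each other or with tissue-specific partners such as the proneural factors, at short sequences called E-boxes, written CANNTG. In neural stem cells, Id proteins are known to limit such dimers. The 10 genes mark the undifferentiated state by different functions: nestin and vimentin build intermediate filaments, the Musashi proteins bind messenger RNA, and tenascin-C and its receptor PTPRZ1 act at the cell surface and in the matrix.

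Promoter sequences are shown for 4 of the genes, because their start sites differ in peak coverage across the lists: Fabp7 and Ptprz1 were covered in all 5 lists, Nes in 4, and Tnc in 3. Each is RefSeq's window of 250 bases before and 50 after the start, in build GRCm38.p6, printed 5′ to 3′ on the gene's strand with E-boxes (CANNTG, which reads the same on both strands) in capitals. The windows are chr10:57784673-57784972 (plus strand), chr6:22875252-22875551 (plus strand), chr3:87970843-87971142 (plus strand) and chr4:64046966-64047265 (minus strand), and these positions cannot be set beside the mm9 peak positions given further on.
Fabp7: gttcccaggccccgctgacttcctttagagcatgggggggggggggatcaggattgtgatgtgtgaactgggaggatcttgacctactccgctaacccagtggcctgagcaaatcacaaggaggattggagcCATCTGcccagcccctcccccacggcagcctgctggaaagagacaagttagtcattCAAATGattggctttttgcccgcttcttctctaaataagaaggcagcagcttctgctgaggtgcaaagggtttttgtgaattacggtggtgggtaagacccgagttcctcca
Ptprz1: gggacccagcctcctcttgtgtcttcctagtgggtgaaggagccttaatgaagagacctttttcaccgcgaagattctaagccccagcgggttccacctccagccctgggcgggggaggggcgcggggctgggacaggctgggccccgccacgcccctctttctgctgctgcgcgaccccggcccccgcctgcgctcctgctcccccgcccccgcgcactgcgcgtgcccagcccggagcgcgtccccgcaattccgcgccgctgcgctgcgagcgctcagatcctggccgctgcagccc
Nes: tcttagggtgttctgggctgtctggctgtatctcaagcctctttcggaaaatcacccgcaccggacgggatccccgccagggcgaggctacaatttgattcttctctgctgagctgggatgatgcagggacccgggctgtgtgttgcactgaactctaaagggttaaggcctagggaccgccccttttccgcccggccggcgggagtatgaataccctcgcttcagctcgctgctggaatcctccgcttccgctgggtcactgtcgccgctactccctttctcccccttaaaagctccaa
Tnc: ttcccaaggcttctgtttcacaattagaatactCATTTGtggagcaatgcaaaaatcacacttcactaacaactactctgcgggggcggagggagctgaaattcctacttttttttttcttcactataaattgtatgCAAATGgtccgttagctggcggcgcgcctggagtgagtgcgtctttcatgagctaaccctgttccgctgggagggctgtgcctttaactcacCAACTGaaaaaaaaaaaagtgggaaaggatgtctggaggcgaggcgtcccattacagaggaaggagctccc
The Fabp7 window holds CATCTG starting 118 bases and CAAATG starting 62 bases upstream of the start. The 3 E-boxes in the Tnc window start 217, 113 and 21 bases upstream. No CANNTG lies in the Nes and Ptprz1 windows, although peaks covered both start sites in most lists. RefSeq's table held windows for 9 of the 10 genes, 14 windows in all, and 9 of these 14 held a CANNTG, against 72.3% of all 32851 windows. Windows of Msi2 overlap one another, as do those of Tnc, and by gene 5 of the 9 held a CANNTG. The E-box variant CAGCTG lay in 1 of the 14 windows, at Hopx, and in 16.3% of all windows. The variant CAGGTG, searched on both strands, also lay in 1 of the 14, at Prom1, and in 20.2% of all windows. These matches describe the letters of a 300-base window and say nothing of binding, and peaks were 411 to 814 bp wide in the median.

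Every one of the 10 genes had a peak in E12KO, E47KO, wt replicate 2 and wt replicate 3, and 8 of them had one in wt replicate 1, where Prom1 and Hmga2 had none. Among 21896 protein-coding genes, 45.1% had a peak in E12KO, 40.7% in E47KO, 17.5% in wt replicate 1, 27.8% in wt replicate 2 and 42.8% in wt replicate 3. Within 10 kb of a start site, 10 of the genes had a peak in E12KO, 10 in E47KO, 6 in wt replicate 1, 7 in wt replicate 2 and 10 in wt replicate 3. The same limit held 34.3% of protein-coding genes in E12KO, 29.0% in E47KO, 9.35% in wt replicate 1, 15.5% in wt replicate 2 and 31.0% in wt replicate 3. Distances for Msi2 run from a short transcript described below. Against only those protein-coding genes that at least 1 of the 5 lists names, the shares at any distance were 86.6% in E12KO and 78.0% in E47KO, and 33.5, 53.3 and 82.1% in wt replicates 1, 2 and 3. The markers' shares were thus above those of all protein-coding genes in every list, and nearer to those of genes with a peak somewhere in the 3 long lists. This is a description with no test attached, since the genes were chosen with earlier results of these data known.

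Peaks annotated to the 10 genes numbered 61 in E12KO and 60 in E47KO, against 28, 48 and 60 in wt replicates 1, 2 and 3. The lists themselves held 25229 peaks in E12KO and 22176 in E47KO, against 6814, 12772 and 24194 in the wt replicates (14593 ± 8832, SD, n = 3). The E12KO list was longer than every wt list, close to wt replicate 3, and the E47KO list lay between wt replicates 2 and 3. As shares of their lists, the marker peaks made up 0.242% in E12KO, 0.271% in E47KO, 0.411% in wt replicate 1, 0.376% in wt replicate 2 and 0.248% in wt replicate 3. The shortest list thus gave the fewest marker peaks but the highest share. Msi2 and Tnc held more peaks than any other marker in every list, with 16 each in E12KO, 18 and 16 in E47KO, 6 and 7 in wt replicate 1, 11 and 14 in wt replicate 2, and 16 and 15 in wt replicate 3.

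**Figure D1:**
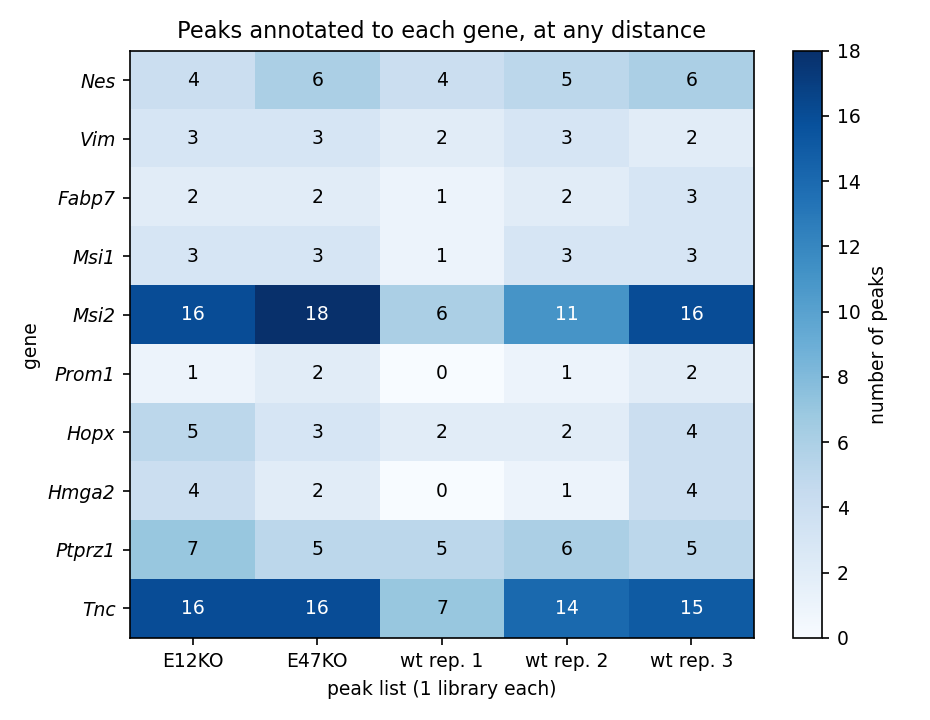
Number of peaks annotated to each gene (rows) in each of the 5 lists (columns, 1 library each), with colour from 0 to 18 peaks. Msi2 and Tnc hold the most in every list, and Prom1 and Hmga2 have 0 in wt replicate 1.

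A region was called wt consensus when at least 2 of the 3 wt lists had a peak in it. All 10 genes had such a region at any distance, against 27.7% of protein-coding genes, and 7 had one within 10 kb (Nes, Vim, Fabp7, Msi1, Prom1, Hopx and Ptprz1), against 16.8%. Msi2, measured from its short transcript, is not among the 7. Tnc had 11 consensus regions and Msi2 had 9, while 0.233% of protein-coding genes had 10 or more. Of the 75 regions, 21 were in all 5 lists, 16 in 4, 16 in 3, 6 in 2 and 16 in 1 list only. Of all 32693 regions, 4153 were in all 5 lists, 7174 in 4, 6776 in 3, 5308 in 2 and 9282 in 1 list only. The single-list regions of the markers came 4 from E12KO, 3 from E47KO, 1 from wt replicate 1, 3 from wt replicate 2 and 5 from wt replicate 3. Among all 9282 single-list regions, 3141 came from E12KO and 1739 from E47KO. At 3 of the 75 marker regions (1 each at Msi2, Hopx and Tnc), E12KO and E47KO each had a peak while every wt replicate lacked one. Over all 32693 regions this held for 1441, a similar share, so the markers do not stand out by it.

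Of the 40 consensus regions, E12KO had a peak in 38 (95%, with a 95% Wilson interval of 83.5 to 98.6%) and E47KO in 37 (92.5%, interval 80.1 to 97.4%). Over all 12231 consensus regions the shares were 96.6% in E12KO and 93.6% in E47KO, both inside those intervals, which cover counting error only. All intervals here take the 40 regions as independent, although Tnc holds 11 of them and Msi2 holds 9, so they may be too narrow. Only 2 of the 40 had a peak in neither knockout (5%, interval 1.38 to 16.5%), against 1.88% over all. In all 5 lists lay 21 of the 40 (52.5%, interval 37.5 to 67.1%), against 34.0% over all. The count is bounded by wt replicate 1, the shortest list: 39 regions were shared by wt replicates 2 and 3, and 22 of these were also in wt replicate 1. Both knockouts and wt replicate 3 are long lists, and how far list length alone sets these shares was not tested. For scale, each knockout had a peak at 21 of the 22 regions that wt replicates 1 and 2 shared, and wt replicate 3 had one at 22 of the 22.

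**Figure D2:**
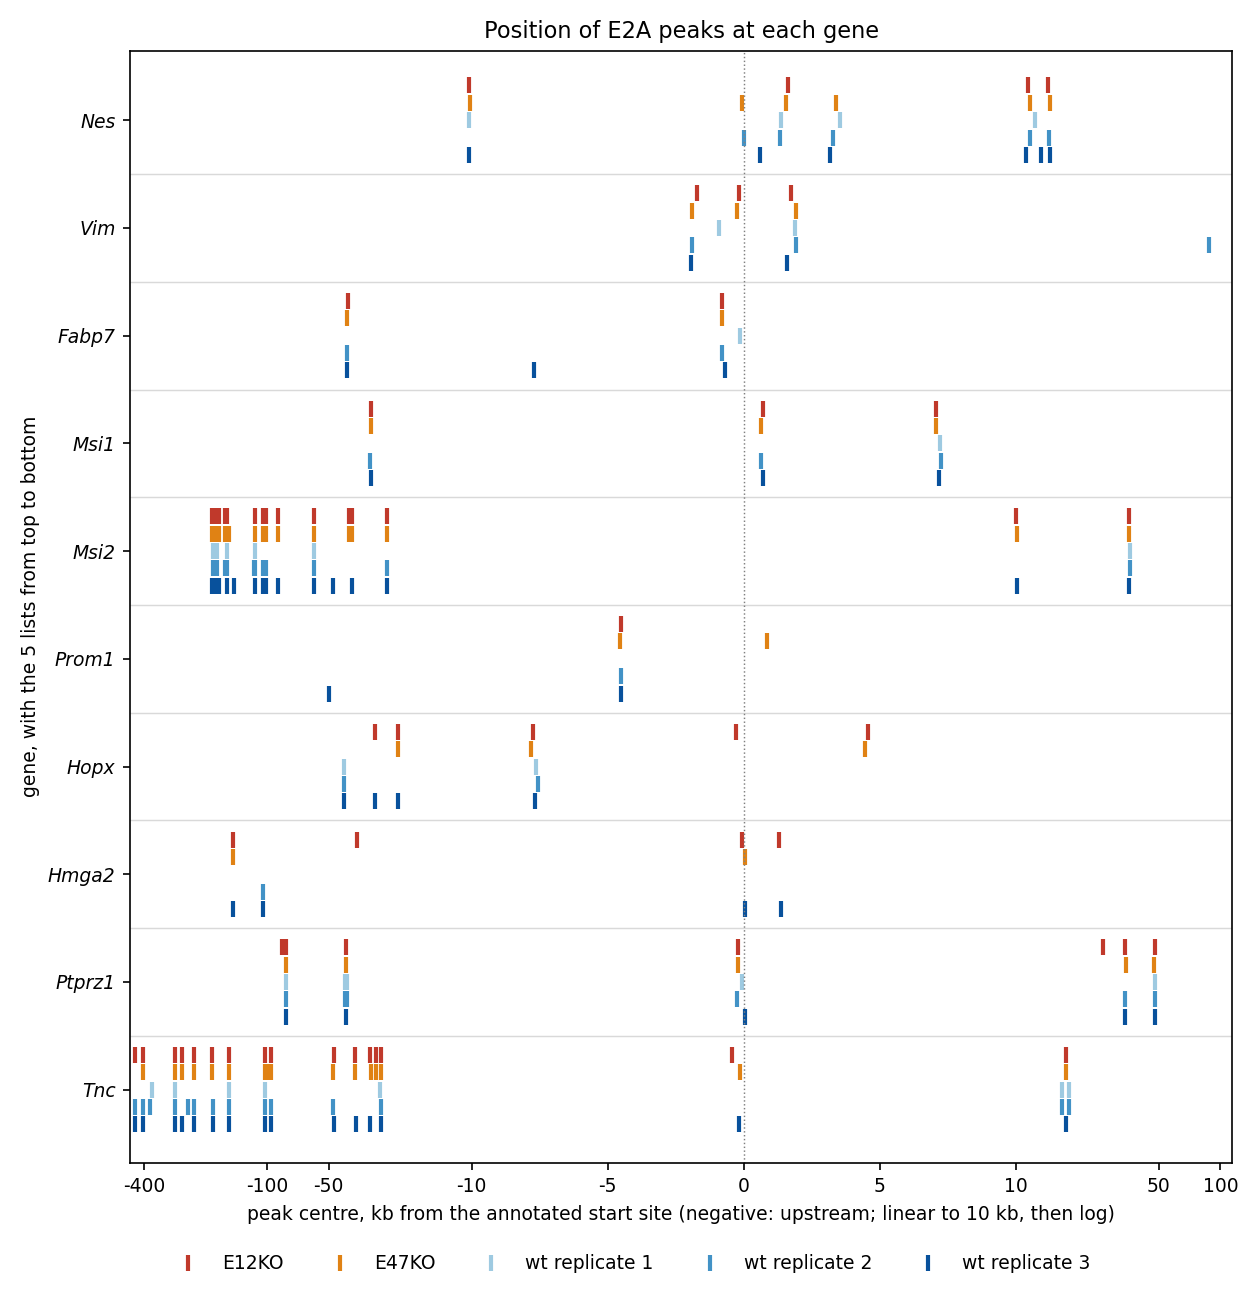
Centre of each peak in kb from the annotated start site (horizontal axis, linear to 10 kb and logarithmic beyond, negative values upstream), by gene, with E12KO and E47KO above wt replicates 1, 2 and 3. The E12KO and E47KO marks line up with wt marks at most wt consensus regions, and the 2 consensus regions with wt marks only are upstream, Hopx at −41.8 kb and Hmga2 at −105 kb.

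Nes encodes nestin, the intermediate filament protein by which neural progenitors are commonly recognised. Its central region, chr3:87774249-87779326 (mm9), reached from the start site into the gene body and was the longest of the 75. Peaks covered 4780 bp of it in E12KO as 1 unbroken peak and 3582 bp in E47KO as 3 peaks, against 1111 bp as 2 peaks in wt replicate 1, 2067 bp as 3 peaks in wt replicate 2 and 4178 bp as 2 peaks in wt replicate 3. The start site itself lay under a peak in E12KO, E47KO and wt replicates 2 and 3, and in wt replicate 1 the nearest edge was 1158 bp downstream. The higher of the 2 peaks in wt replicate 1, annotated to an exon, began 3172 bp downstream of the start site and had a fold enrichment of 9.22. A neural enhancer is known from an intron of Nes, but no annotation used here marks it.

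A second Nes region in all 5 lists lay 9.62 kb downstream of the start, past the end of the gene, at chr3:87784633-87787749. It covered 2501 bp in E12KO and 1956 bp in E47KO, against 358, 1576 and 3117 bp in wt replicates 1, 2 and 3. Here the knockout values fell between the lowest and the highest wt value. Regions 9.86 kb upstream and 13.7 kb downstream were in both knockouts and in 2 wt lists each. One further region of 218 bp was in wt replicate 3 only, 402 bp from the nearest E12KO peak and 493 bp from the nearest E47KO peak.

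Vim encodes vimentin, a filament protein of progenitors, radial glia and many mesenchymal cells. Its 1 region in all 5 lists, chr2:13496761-13498511, lay 823 bp downstream of the start and is annotated to intron 2 in 3 of the 5 tables. Covered lengths were 1699 bp in E12KO and 809 bp in E47KO, against 413, 464 and 1544 bp in wt replicates 1, 2 and 3. The fold enrichment in wt replicate 1 was 5.30, under the list's lower quartile of 5.85. A region at the start site, chr2:13494874-13496601, covered the start in both knockouts, by peaks of 1699 bp in E12KO and 1478 bp in E47KO. In wt replicate 1 it held a peak of 309 bp that ended 756 bp before the start, and wt replicates 2 and 3 had no peak in it. The nearest peak was 160 bp from that region in wt replicate 3 and 581 bp from it in wt replicate 2, so the start site was uncovered in all 3 wt lists while flanking peaks were present. A region 1.25 kb upstream was in both knockouts and wt replicates 2 and 3, and 1 region 87.8 kb downstream, inside another gene, was in wt replicate 2 only.

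Fabp7 encodes a brain fatty acid binding protein of radial glia. Its start site lay under a peak in all 5 lists, in the region chr10:57503015-57505020, whose window with 2 E-boxes is shown above. Peaks covered 1784 bp in E12KO and 1816 bp in E47KO, against 448, 1782 and 1990 bp in wt replicates 1, 2 and 3. The knockouts and wt replicates 2 and 3 were close to one another, and wt replicate 1 stood apart as the narrowest. The authors' fold enrichment there was 7.41 in wt replicate 1, near the list's median of 7.48. A distal region 40 kb upstream was in every list but wt replicate 1, and 1 region 7.48 kb upstream was in wt replicate 3 only.

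Msi1, which encodes Musashi-1, an RNA-binding protein that represses translation of the Notch inhibitor Numb, had 3 regions, and all were consensus regions with a peak in both knockouts. The one in all 5 lists, chr5:115886124-115887450, lay in intron 6, 6.43 kb downstream of the start. It covered 1247 bp in E12KO and 989 bp in E47KO, against 729, 828 and 1147 bp in wt replicates 1, 2 and 3, and had a fold enrichment of 12.1 in wt replicate 1. That is above the upper quartile of the list, 10.9. The promoter region, which began 142 bp downstream of the start without reaching it, and a region 30.8 kb upstream were in every list but wt replicate 1. Covered lengths at the promoter were 1151 bp in E12KO and 870 bp in E47KO, against 753 and 996 bp in wt replicates 2 and 3.

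Msi2 encodes Musashi-2, the paralogue with much the same RNA-binding domains. Its 19 regions included 6 in all 5 lists and 9 consensus regions, and every consensus region had a peak in both knockouts. The tables measure its distances from a short transcript (chr11:88152884-88180423, minus strand), so regions given as far upstream lie in introns of a longer Msi2 transcript. Of the 6 shared regions, the strongest in wt replicate 1 was chr11:88144146-88145069, downstream of the gene, at 35.4 kb, with a fold enrichment of 18.9. It covered 712 bp in E12KO and 537 bp in E47KO, against 454, 324 and 924 bp in wt replicates 1, 2 and 3. The next, chr11:88294864-88296646, lay 114 kb upstream of the short transcript, with a fold enrichment of 17.9. There peaks covered 1743 bp in E12KO and 1506 bp in E47KO, against 1075, 1196 and 1539 bp in the wt replicates. These are the highest 2 fold enrichments of any marker peak in that list.

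The other 4 shared Msi2 regions were intronic. A region 58.5 kb upstream, chr11:88238896-88239579, had a fold enrichment of 11.1 and covered 565 bp in E12KO and 515 bp in E47KO, against 407, 327 and 630 bp in wt replicates 1, 2 and 3. The other 3, at −157, −176 and −183 kb had fold enrichments of 6.27, 7.83 and 7.30. Of the 6, the one at −157 kb, chr11:88337226-88339466, showed the largest gap between lists, with 2087 bp in E12KO and 2036 bp in E47KO against 365, 673 and 1647 bp in the wt replicates. Those at −176 kb (chr11:88356251-88357070) and −183 kb (chr11:88363616-88365023) covered 701 and 874 bp in E12KO, 715 and 910 bp in E47KO, 457 and 384 bp in wt replicate 1, 635 and 966 bp in wt replicate 2, and 783 and 624 bp in wt replicate 3. One Msi2 region, 39.4 kb upstream, was in both knockouts and in no wt list, with 691 bp in E12KO and 466 bp in E47KO. It lay 687 bp from a wt replicate 3 peak. The 3 remaining consensus regions, 25.8, 101 and 105 kb upstream, were in every list but wt replicate 1. Another 6, from 9.34 kb downstream to 186 kb upstream, were in both knockouts and in 1 wt list. Of the 3 Msi2 regions in 1 list only, 2 were in wt replicate 3 and 1 in E47KO.

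The 5′ part of the longer Msi2 transcript carries more peaks than the name counts. Chosen after the values were seen, 13 further regions lie in its introns, in an exon and at the start site of a further transcript, annotated to a gene ID for which the tables give no symbol. They held 10 peaks in E12KO and 11 in E47KO, against 4, 7 and 11 in wt replicates 1, 2 and 3. Of these regions 2 were in all 5 lists: chr11:88395626-88399358, 180 kb from the start site of that gene ID, and chr11:88579149-88580456, over that start site itself. Another, chr11:88563325-88564086, 15.5 kb from that start site, held a peak in wt replicates 1 and 3 but none in E12KO or E47KO. It is thus also a wt consensus region with no knockout peak, outside the 40 counted by name. With these 13, the locus has 32 regions, 8 of them in all 5 lists. Peaks 1601 bp (E12KO) and 1962 bp (wt replicate 2) from the start site of that gene ID are annotated to exon 4 and intron 4 of the longer Msi2 transcript. The start site thus lies by the 5′ exons of that transcript. No name is given to the ID here, since the tables and the RefSeq table do not pair it with one.

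**Figure D3:**
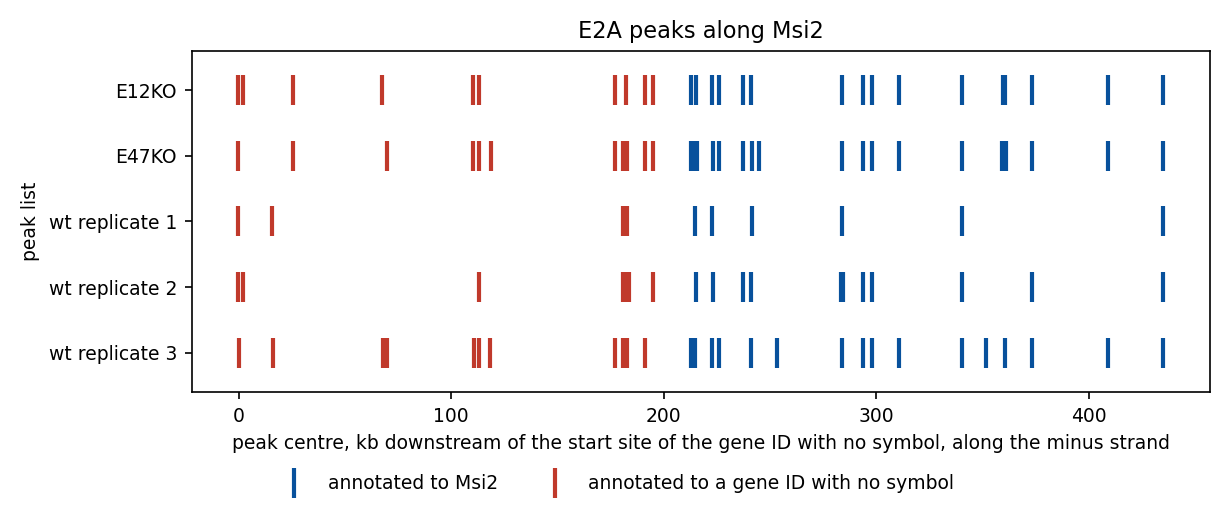
Centre of each peak along the Msi2 locus in kb downstream of the start site of the gene ID with no symbol, by list, with E12KO and E47KO above wt replicates 1 to 3; colour marks the annotation. Peaks with no symbol fill the part nearest that start site and peaks annotated to Msi2 the rest. The part with no symbol holds 10 of them in E12KO, 11 in E47KO and 4, 7 and 11 in wt replicates 1 to 3.

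Prom1 encodes prominin-1 (CD133), a glycoprotein of membrane protrusions used to sort stem cells. It had 3 regions and none in all 5 lists, since wt replicate 1 had no Prom1 peak and its nearest peak of any gene was 647628 bp from the closest of them. Its consensus region, chr5:44497502-44498079, lay 4.23 kb upstream. Peaks there covered 578 bp in E12KO and 351 bp in E47KO, against 234 and 437 bp in wt replicates 2 and 3. The other regions were single-list: a 502 bp promoter peak 618 bp downstream of the start in E47KO only, and a 275 bp peak 49.7 kb upstream in wt replicate 3 only.

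Hopx encodes a small homeodomain protein that does not bind DNA itself and that marks quiescent stem cells in several tissues. The region in all 5 lists, chr5:77551029-77552894, lay 6.88 kb upstream and covered 1740 bp in E12KO and 1827 bp in E47KO, against 336, 1073 and 1115 bp in wt replicates 1, 2 and 3. Both knockout values exceeded every wt value there. The opposite held 41.8 kb upstream, at chr5:77585947-77586493: peaks of 452, 427 and 378 bp in wt replicates 1, 2 and 3 had no counterpart in E12KO or E47KO. The nearest peak was 11829 bp away in E12KO and 18682 bp away in E47KO. In wt replicate 1 this Hopx peak had a fold enrichment of 10.7 and a −log10 q of 21.8, at percentile 73.9 of that list by fold enrichment. Of 4229 regions in all 3 wt lists, 7 (0.166%) were in neither knockout, and this is one of them. The other 21 of the 22 marker regions in all 3 wt lists had a peak in both knockouts.

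The remaining Hopx regions differed between lists. One 4.24 kb downstream of the nearest annotated start, in intron 2, was in both knockouts (383 bp in E12KO, 465 bp in E47KO) and in no wt list. The promoter region, ending 63 bp before the start, was in E12KO only, as a peak of 462 bp. Those 22.6 and 29.7 kb upstream were in wt replicate 3 and in E12KO, and the first of them in E47KO too. With 1 library per knockout, a knockout difference and a difference between libraries cannot be told apart at any of these sites.

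Hmga2 encodes a chromatin protein with AT-hooks that is abundant in fetal stem cells and is a known target of let-7 miRNAs. It had 5 regions, none in all 5 lists. The start site lay under a peak of 897 bp in E12KO, 1051 bp in E47KO and 1046 bp in wt replicate 3, and under none in wt replicates 1 and 2. Its 1 consensus region, chr10:120018656-120018885, 105 kb upstream, held short peaks of 207 bp in wt replicate 2 and 198 bp in wt replicate 3 and none in E12KO, E47KO or wt replicate 1. The nearest knockout peaks were 42521 bp away in E12KO and 42375 bp away in E47KO. Both of the 40 consensus regions that lacked a peak in E12KO and E47KO lay far upstream, but only 11 of the 40 lay within 10 kb of a start site. The Hmga2 one was short and also missing from 1 wt list. Of the other Hmga2 regions, one 147 kb upstream was in E12KO, E47KO and wt replicate 3, with 401, 400 and 427 bp. A region 656 bp downstream of the start covered 1249 bp in E12KO and 594 bp in wt replicate 3, and E47KO, which had no peak in it, had one 90 bp away. A peak of 284 bp, 36.1 kb upstream, was in E12KO only.

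Inside the Hmga2 gene, 8 regions are annotated in the tables to the microRNA gene Mir763 and so fall outside the name rule; they were looked up after the values were seen. They held 7 peaks in E12KO and 6 in E47KO, against 2, 5 and 8 in wt replicates 1, 2 and 3. All 5 consensus regions among them had a peak in both knockouts. Those in all 5 lists were chr10:119814303-119815104 and chr10:119858763-119860689. Wt replicate 1, which had no peak named for Hmga2, thus had 2 inside the gene.

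Ptprz1 encodes a chondroitin sulfate proteoglycan and receptor-type tyrosine phosphatase of progenitors. Among its 7 regions 4 were in all 5 lists and 5 were consensus regions, each with a peak in both knockouts. The start-site region, chr6:22824813-22826251, covered 964 bp in E12KO and 737 bp in E47KO, against 327, 538 and 1388 bp in wt replicates 1, 2 and 3, with a fold enrichment of 6.80. Its strongest region was distal, 40.3 kb upstream at chr6:22783506-22785219, with a fold enrichment of 17.8 and a −log10 q of 62.7, the highest −log10 q among the marker peaks. It covered 1714 bp in E12KO and 1679 bp in E47KO, against 998, 1158 and 1566 bp in the wt replicates. Both knockouts were above all 3 wt lists there, by less than the spread among the wt lists.

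Further upstream, 79.6 kb from the Ptprz1 start, chr6:22743842-22745880 covered 2007 bp in E12KO and 1992 bp in E47KO, against 530, 1912 and 1925 bp in wt replicates 1, 2 and 3. A region in intron 1, chr6:22872705-22873368, 47.2 kb downstream, covered 419 bp in E12KO and 615 bp in E47KO, against 390, 301 and 423 bp in the wt replicates. Their fold enrichments in wt replicate 1 were 5.22 and 6.28. An intron 1 region at 33.5 kb was in every list but wt replicate 1, and the 2 single-list regions, of 217 and 289 bp, were in E12KO only.

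Tnc encodes tenascin-C, a matrix glycoprotein of germinal zones that binds PTPRZ1. Its 20 regions spread from 442 kb upstream to 16.2 kb downstream of annotated starts, and 5 were in all 5 lists. The strongest, chr4:63662737-63665525, lay inside the gene, 16.2 kb downstream of an internal start site, with a fold enrichment of 11.4. Peaks covered 2789 bp in E12KO and 2574 bp in E47KO, against 1406, 1946 and 2417 bp in wt replicates 1, 2 and 3. Both knockouts were above every wt list there. The same held at the Tnc regions at −27.1 and −283 kb, but not at those at −102 and −153 kb.

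Upstream of Tnc lay the other 4 regions in all 5 lists, at −27.1, −102, −153 and −283 kb. The nearest, chr4:63735165-63736387, covered 1223 bp in E12KO and 1021 bp in E47KO, against 543, 776 and 899 bp in wt replicates 1, 2 and 3. At chr4:63809773-63810806 the lengths were 1034 bp in E12KO and 672 bp in E47KO, against 539, 503 and 686 bp. The 2 outer regions, chr4:63861071-63861811 and chr4:63991224-63991974, covered 574 and 655 bp in E12KO, 648 and 720 bp in E47KO, 396 and 339 bp in wt replicate 1, 552 and 489 bp in wt replicate 2, and 741 and 595 bp in wt replicate 3. Fold enrichments of the 4, from nearest to farthest, were 4.77, 7.69, 6.38 and 7.48 in wt replicate 1. They were within or below the middle part of that list, although every list had them.

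The Tnc start site, whose window holds 3 E-boxes, lay under a peak of 1399 bp in E12KO, 596 bp in E47KO and 704 bp in wt replicate 3, and under none in wt replicates 1 and 2. Of the 11 Tnc consensus regions E12KO had 11 and E47KO had 10. The exception, chr4:64150511-64150849 at −442 kb, held peaks of 210 bp in E12KO and 287 and 330 bp in wt replicates 2 and 3, and none in E47KO, whose nearest peak was 37012 bp away. One region 29.2 kb upstream was in both knockouts, with 302 bp in each, and in no wt list. It lay 1014 bp from the nearest wt replicate 3 peak. The 5 remaining consensus regions, from 47 to 404 kb upstream, were in every list but wt replicate 1. Another 3, at −30.9, −36.8 and −259.8 kb, were in both knockouts and wt replicate 3. Single-list regions numbered 4, of 191 to 354 bp, with 1 in E47KO, 1 in wt replicate 1 and 2 in wt replicate 2. Some of the upstream regions lie in transcripts for which the tables give no gene symbol, and nearness to its start site alone ties them to Tnc.

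Across genes, start sites were covered in 6 of the 10 in E12KO (Nes, Vim, Fabp7, Hmga2, Ptprz1 and Tnc) and the same 6 in E47KO. In wt replicate 1 they were covered at 2 (Fabp7 and Ptprz1), in wt replicate 2 at 3 (those and Nes) and in wt replicate 3 at 5 (all of the 6 but Vim). For Msi2 these counts use the start of its short transcript. The share of all protein-coding genes with a covered start site was not worked out, so these counts have no background beside them. The counts were lowest in the shorter lists, wt replicates 1 and 2. The start site of the gene ID with no symbol lay under a peak in E12KO, E47KO and wt replicates 2 and 3. In wt replicate 1 the nearest peak there was 83 bp away. Peaks of the markers lay mostly away from promoters. Promoter peaks made up 16.4% of marker peaks in E12KO and 13.3% in E47KO, against 14.3, 8.33 and 11.7% in wt replicates 1, 2 and 3. Over all peaks of the same lists, promoters made up 27.5% in E12KO, 25.3% in E47KO and 23.1, 19.5 and 24.9% in the wt replicates. Intron peaks were 45.9% of marker peaks in E12KO and 51.7% in E47KO, against 39.3, 45.8 and 43.3% in the wt replicates. Over all peaks, introns held 32.7% in E12KO, 34.3% in E47KO and 35.2, 36.5 and 34.6% in the wt replicates. The annotation of wt replicate 1 has a wider promoter class, which also takes peaks 1 to 2 kb from a start site. A Nes peak 1158 bp downstream was a promoter peak there, while one 1167 bp downstream in wt replicate 2 was an intron peak. Class shares of wt replicate 1 can thus be set beside all peaks of its own list, but not beside the other lists. Msi2 and Tnc weigh heavily in these shares, with 16 each of the 61 marker peaks in E12KO and 18 and 16 of the 60 in E47KO. In each knockout, 1 peak of Msi2 and 1 of Tnc lay within 10 kb of a start site, and no Msi2 peak was annotated to a promoter. Shares without Msi2 and Tnc were not worked out, so the pooled shares do not describe each gene.

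Peak length varied with the list. At the 21 regions in all 5 lists the median covered length was 1247 bp in E12KO and 989 bp in E47KO, against 448, 776 and 1147 bp in wt replicates 1, 2 and 3. Over all 4153 regions in all 5 lists the medians were 939 bp in E12KO and 826 bp in E47KO, against 477, 569 and 856 bp. The E12KO median at marker regions was above all 3 wt medians and the E47KO median between them. The marker regions were thus longer than regions at large in every list but wt replicate 1. Of the 21, the longest covered length was in E12KO at 10, in E47KO at 3, in wt replicate 2 at 1 and in wt replicate 3 at 7. Wt replicate 1 was the shortest at 17 and wt replicate 2 at 4. Length follows the peak caller's threshold and the depth, and neither is known for every list.

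**Figure D4:**
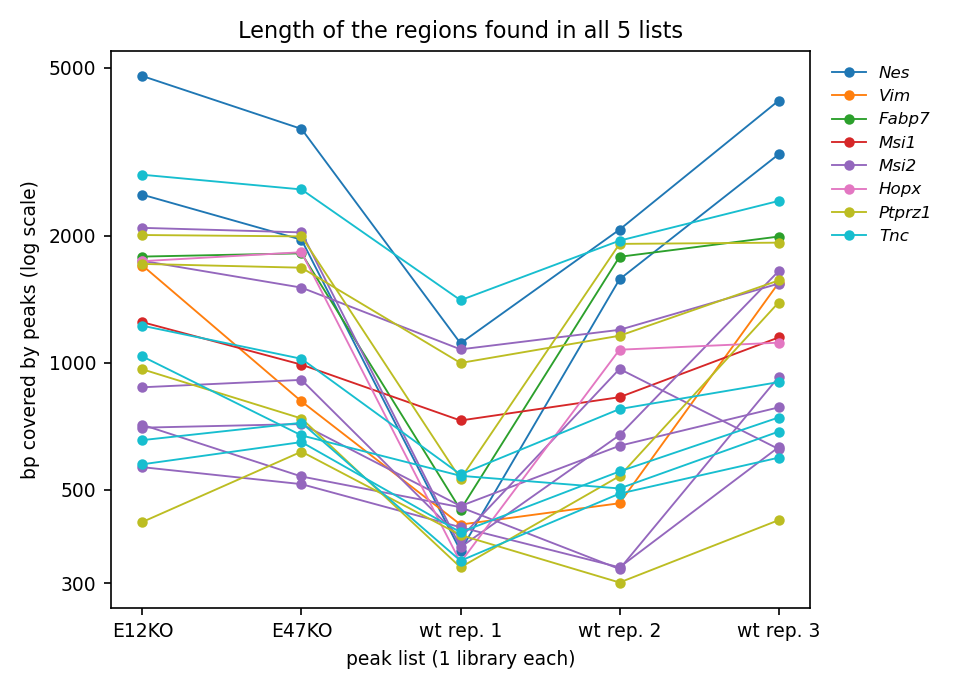
Length covered by peaks (logarithmic axis, bp) at each of the 21 regions found in all 5 lists, by list, with 1 line per region coloured by gene. Lines dip at wt replicate 1, where the median is 448 bp, and stand highest at E12KO (1247 bp) and wt replicate 3 (1147 bp).

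Scores per peak are given by the authors for wt replicate 1 alone. The 28 marker peaks in that list had a median fold enrichment of 7.05 (quartiles 5.28 and 9.64), against 7.48 (5.85 and 10.9) over all 6814 peaks, and 11 of the 28 exceeded the list's median. Their median −log10 q was 11.4, against 13.5 over the list, and their pileup (coverage height) had a median of 23, against 24. The marker peaks were thus of ordinary strength for the list. The strongest were 2 peaks at Msi2 and 1 at Ptprz1, with fold enrichments of 18.9, 17.9 and 17.8, at percentiles 92, 90.8 and 90.8 of the list. They lay 35.4, 114 and 40.3 kb from the annotated start sites.

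**Figure D5:**
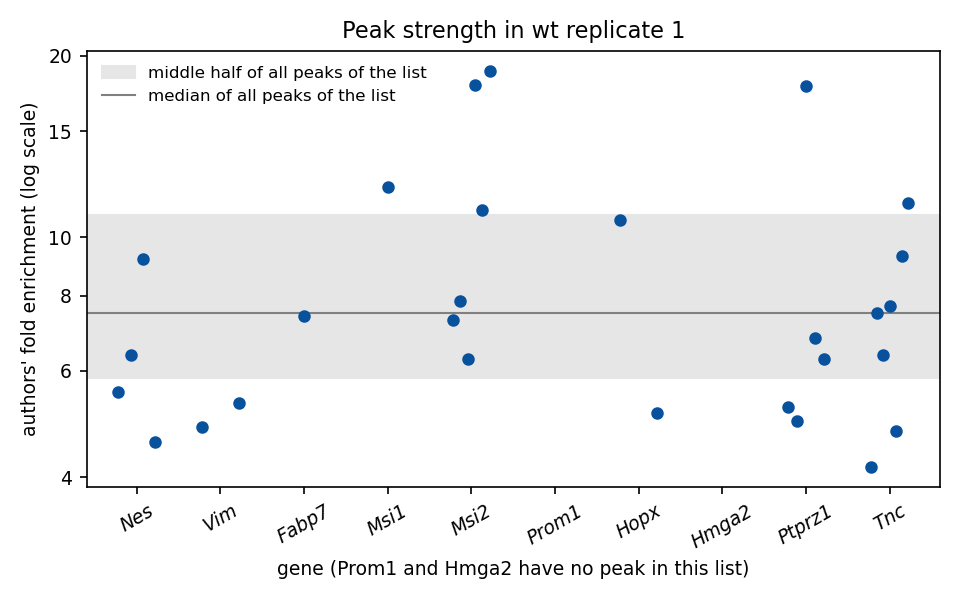
The authors' fold enrichment (logarithmic axis) of each marker peak in wt replicate 1, by gene, with the list's median (7.48) as a line and its middle part (5.85 to 10.9) as a band. Peaks of Msi2 (18.9, 17.9 and 11.1), Ptprz1 (17.8), Msi1 (12.1) and Tnc (11.4) lie above the band, and Prom1 and Hmga2 have no peak in the list.

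For the setting of these genes, 3 lists of related genes were read the same way. The first held 18 other neural stem cell markers, mostly transcription factors and Notch and growth factor receptors, with Slc1a3, Cd24a and Bmi1 besides. Of these 18, 13 (72.2%) had a consensus region within 10 kb, all with a peak that close in both knockouts. Of 19 paralogues and partners of the markers, 6 (31.6%) did, 5 of them with a peak that close in E12KO and 6 in E47KO. Of 15 neuronal structural and RNA-binding markers, 4 (26.7%) did, all with a peak that close in both knockouts. Those shares stand beside 7 of 10 markers and 16.8% of protein-coding genes, and no difference between lists was tested.

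Ranked by −log10 q in wt replicate 1 within 10 kb, the leading stem cell regulators were Hes5, a Notch effector, with a fold enrichment of 58.8, then Sox1 with 22.0, Sox2 with 20.4 and Hes1 with 16.0. Among paralogues and partners, Ptprg (the phosphatase closest to Ptprz1) reached 8.76, Ptn (pleiotrophin, a PTPRZ1 ligand) 6.41 and Gfap (the astrocyte filament protein) 4.71. Among neuronal genes, Map2 (a dendrite microtubule protein) reached 11.5, and the RNA-binding protein genes Elavl4 and Nova1 reached 9.07 and 6.26. The highest fold enrichment within 10 kb at a structural or RNA-binding marker, 12.1 at Msi1, was near that of Map2 and below that of these 4 regulators.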

How the data were processed

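E2A ChIP-seq peak lists of 5 libraries were used. Per the submitters' processing notes, the authors used BWA 0.7.13, Picard 1.119 and MACS2 2.1.0 with mm9. Their settings are not stated in the sources used. Lists were deposited per library, not pooled. Per the file headers, each gives peak positions, width and distance to the nearest start site in bp, and positions may be off by 1 base at the start. The deposited table of wt replicate 1 alone also gives pileup signal (coverage height), −log10 p, −log10 q (at least 2.07) and fold enrichment (a ratio over background). File names state another false discovery rate for wt replicate 1 than for the other lists, whose thresholds could not be checked. Its distances run from another peak edge, so nearest edges were recomputed for it.

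The 10 genes and all lists were chosen with earlier results of these data known. All 10 are named. Regions in all 5 lists and consensus regions without a knockout peak are given singly, others mostly by count and range. Of each further list, up to 4 genes with the highest −log10 q are named. Peaks overlapping by at least 1 bp were merged (Python 3.11.15, pandas 2.3.3), after a check on simulated data. Background genes were the 21896 protein-coding genes of RefSeq GRCm38.p6, used for names only (12078 of 12140 IDs matched). Depth is unknown, and Wilson intervals cover counting error only. The alternatives were other overlaps, consensus rules, distances, thresholds, backgrounds and leaving out each wt replicate.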

Additional observations from a re-analysis of the deposited data

How the results depend on the processing

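All 10 genes kept a wt consensus region in 2 or more wt lists with 50% reciprocal overlap, with merging over 500 bp and with a −log10 q of at least 5 in wt replicate 1. Requiring 50% overlap lowered the E12KO and the E47KO share to 80.5% each. Requiring all 3 wt lists left 22 consensus regions at 8 genes, and requiring 1 gave 65, with 83.1% in E12KO and 78.5% in E47KO. Within 10 kb there were 20 regions and 11 consensus regions, all with a peak in each knockout (100%). Within 50 kb there were 44 regions and 23 consensus regions, and within 100 kb 26 consensus regions. Leaving out one wt replicate gave 22 to 39 consensus regions at 8 to 10 genes, the fewest when wt replicate 3 was dropped (22), then wt replicate 2 (23), and the most without wt replicate 1. These follow from fewer or more lists and regions being counted. Knockout shares over all consensus regions were not worked out under these other rules. The marker shares here therefore have no background, and those given earlier belong to the main rule. Adding the Msi2 and Hmga2 gene body regions that carry another gene name (Mir763) or none, an alternative chosen after seeing the data, gave 49 consensus regions of 96, with 93.9% in E12KO and 91.8% in E47KO. With the genes named by any list as background, the shares with a peak were 86.6% in E12KO and 78.0% in E47KO, against 33.5, 53.3 and 82.1% in wt replicates 1, 2 and 3. No paired analysis was possible because each knockout has 1 library.

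Each knockout rests on 1 library, and no score is given for 4 of the 5 lists, so presence and length of a peak are the measures used. A region absent from a list was not called there, which unknown depth and thresholds limit.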
